A study of Homo sapiens with 6 samples.

Results

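The genes examined here are the 10 named writers and erasers of methylation at lysine 36 of histone H3 (H3K36), taken by symbol from the deposited table of 15897 genes. There are 6 writers (SETD2, NSD1, WHSC1, WHSC1L1, ASH1L and SETMAR) and 4 erasers (KDM2A, KDM2B, KDM4A and KDM4C). The table spells WHSC1 as NSD2 and WHSC1L1 as NSD3, and it holds 1 row for each of the 10 genes. All 10 passed the filter on low values, a mean FPKM of at least 0.5 over all libraries, which 14068 genes passed. FPKM counts fragments relative to the length of the gene and to the mapped fragments of the library, so levels of different genes can be set side by side within a library.

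Methylation of H3K36 marks the bodies of transcribed genes and is laid down in steps. NSD1, WHSC1, WHSC1L1 and ASH1L add the first methyl groups, and SETD2, which travels with elongating RNA polymerase II, is the main enzyme that completes trimethylation. SETMAR joins a SET domain to a mariner transposase, and the activity of the fusion protein on H3K36 has been debated. KDM2A and KDM2B remove the lower methylation states and bind unmethylated CpG islands through a CXXC zinc finger. KDM4A and KDM4C act on trimethylated and dimethylated lysines of both H3K9 and H3K36.

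RNA was sequenced from H1650, an established human lung adenocarcinoma cell line, in 3 libraries labelled control with a wild type genotype and 3 labelled shSETD2, for short hairpin RNA against SETD2. The study describes stable lines made with lentivirus and 3 hairpin constructs, but neither it nor the labels say which construct each shSETD2 library carries. The labels do not say that the libraries of a group came from separate cultures, so p-values measure the spread between libraries, which may be technical. For 3 libraries against 3, the smallest p-value of a two-sided exact permutation test is 0.1.

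The groups differed far beyond the genes examined here. Across genes, Pearson's r of log2(FPKM + 1) lay between 0.98 and 0.99 within a group and between 0.70 and 0.71 across groups. Of 10 markers of lung epithelium 1 was listed, NKX2-1, at 1.44 to 1.80 FPKM in the control libraries and at 0 in every shSETD2 library. The 8 listed of 10 epithelial markers summed to 14.4 to 16.2 FPKM in the control libraries and to 406.1 to 458.9 in the shSETD2 libraries. The keratins KRT7, KRT8 and KRT18 carried this sum, with means of 81.9, 93.9 and 254.6 FPKM in shSETD2 against 0.021, 2.86 and 10.04 in control. The other listed epithelial markers went both ways. ELF3 rose from 0.22 ± 0.036 to 4.23 ± 0.15 FPKM, ESRP1 from 0.018 ± 0.023 to 0.80 ± 0.16 and CLDN4 from 0.067 ± 0.023 to 0.17 ± 0.047 (SD, n = 3). CDH1 (E-cadherin) was lower, at 1.27 ± 0.36 FPKM in control and 0.012 ± 0.0018 in shSETD2, and so was EPCAM, at 0.71 ± 0.12 and 0.22 ± 0.071 (SD, n = 3). EPCAM, ESRP1 and CLDN4 did not pass the filter on low values. The 6 listed of 7 markers of renal epithelium summed to 9.85 to 11.3 and to 44.8 to 54.6 FPKM. Of these, 4 were higher in shSETD2 and 2 lower. PAX8 rose from a mean of 0.017 FPKM in control to 30.8 in shSETD2, and PAX2 from 0.74 to 9.93. LHX1 rose from 0.80 to 4.65 FPKM and WT1 from 1.22 to 3.62. EMX2 and SIX2 had means of 2.10 and 5.49 FPKM in control and were at 0 in every shSETD2 library. The 4 listed of 8 fibroblast markers summed to 4.04 to 4.54 and to 0.29 to 0.34 FPKM, and the 1 listed of 6 leukocyte markers, CD68, was at 1.01 to 1.31 and 1.35 to 1.62 FPKM. These marker levels moved with the group labels, and their part in the differences of the writers and erasers was not tested. All 6 libraries are labelled H1650, but with markers this far apart it is uncertain whether both groups came from the same cell line. An effect of the hairpins and a difference in the source of the cells cannot be told apart in any difference between the groups given here.

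The starts are shown for SETD2, the target of the hairpins, for the eraser that was higher in the shSETD2 libraries (KDM2A), for the eraser lowered most (KDM4C) and for the eraser whose call depended on the scaling of the libraries (KDM4A). The sequences are the 250 bases before the annotated start, from RefSeq in build GRCh38.p14, written 5′ to 3′ on the strand of the gene. Capitals mark matches to any of 6 motifs on either strand, and neighbouring matches can overlap. The GC box was searched with the letters GGGCGG and the E-box, which basic helix-loop-helix factors bind, with CACGTG. For the core of the ETS site the letters were CCGGAA, for that of the NRF1 site CGCANGCG and for the CRE of the CREB family TGACGTCA. The last motif was the CCAAT box, searched as its name is spelled.
SETD2, chr3:47164114-47164363, minus strand: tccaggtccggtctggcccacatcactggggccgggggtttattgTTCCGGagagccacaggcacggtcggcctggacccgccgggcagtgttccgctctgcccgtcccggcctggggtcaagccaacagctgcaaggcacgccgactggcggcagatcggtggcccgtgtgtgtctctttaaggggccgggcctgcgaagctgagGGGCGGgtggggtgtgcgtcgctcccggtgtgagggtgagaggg
KDM2A, chr11:67119013-67119262, plus strand: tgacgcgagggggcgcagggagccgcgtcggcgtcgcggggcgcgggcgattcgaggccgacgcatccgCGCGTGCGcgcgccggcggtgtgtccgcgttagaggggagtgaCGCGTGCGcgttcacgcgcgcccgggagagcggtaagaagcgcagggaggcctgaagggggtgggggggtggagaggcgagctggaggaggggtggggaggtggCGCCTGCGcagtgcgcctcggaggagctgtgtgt
KDM4C, chr9:6757723-6757972, plus strand: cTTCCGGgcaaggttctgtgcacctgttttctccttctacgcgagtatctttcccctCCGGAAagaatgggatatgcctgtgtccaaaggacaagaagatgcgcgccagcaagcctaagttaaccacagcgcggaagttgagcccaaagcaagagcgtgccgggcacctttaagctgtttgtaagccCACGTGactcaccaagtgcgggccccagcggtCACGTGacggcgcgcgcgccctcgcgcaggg
KDM4A, chr1:43649899-43650148, plus strand: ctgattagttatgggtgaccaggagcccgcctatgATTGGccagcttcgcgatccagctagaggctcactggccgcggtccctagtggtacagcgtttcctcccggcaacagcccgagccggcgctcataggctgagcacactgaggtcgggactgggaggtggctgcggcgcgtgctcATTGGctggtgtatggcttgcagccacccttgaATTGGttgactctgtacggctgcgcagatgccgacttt

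The SETD2 start holds 1 GC box and 1 ETS core. KDM2A, for which the first of 2 annotated starts is shown, has 3 NRF1 cores and no other match. KDM4C carries 2 E-boxes and 2 ETS cores, and KDM4A carries 3 CCAAT boxes, each read from the opposite strand. Over the 35116 windows of this length in the same table, 42.6% hold a GC box, 32% a CCAAT box, 6.34% an E-box, 8.69% an NRF1 core, 14.5% an ETS core and 1.65% a CRE. The table has entries for 9 of the 10 genes, with 17 windows in all, and WHSC1L1 was not matched. Of the 17 windows, 12 hold a GC box, 7 a CCAAT box, 2 an E-box, 4 an NRF1 core and 5 an ETS core. NSD1, KDM2B and KDM2A have more than 1 window each, and 2 windows of NSD1 overlap. The windows are thus not independent, and the same match can be counted more than once. The windows of the 9 genes held 7 to 50 CpG dinucleotides, and 15 of 17 reached the median of 11 over all windows. Matches of letters are descriptions of these windows only.

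Of the 10 genes, 5 were lower and 1 was higher in shSETD2 with an adjusted p under 0.05 (limma on log2(FPKM + 1), Benjamini-Hochberg over all genes tested). Among all 14068 genes tested, 78.6% passed this threshold, 51.8% lower and 26.8% higher. A call was thus no unusual event in this comparison, and the size and spread of each difference carry more than the count. The writers NSD1, WHSC1L1 and ASH1L and the erasers KDM2B and KDM4C were lower, and the eraser KDM2A was higher. In bulk RNA, fewer cells that express a gene and less RNA per cell cannot be told apart. SETD2, WHSC1, SETMAR and KDM4A did not pass the threshold. Between the groups 6 of the 10 genes did not overlap, against 80.9% of all genes tested. The median difference in log2(FPKM + 1) was -0.57 over the 10 genes and -0.29 over all genes tested.

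**Figure D1:**
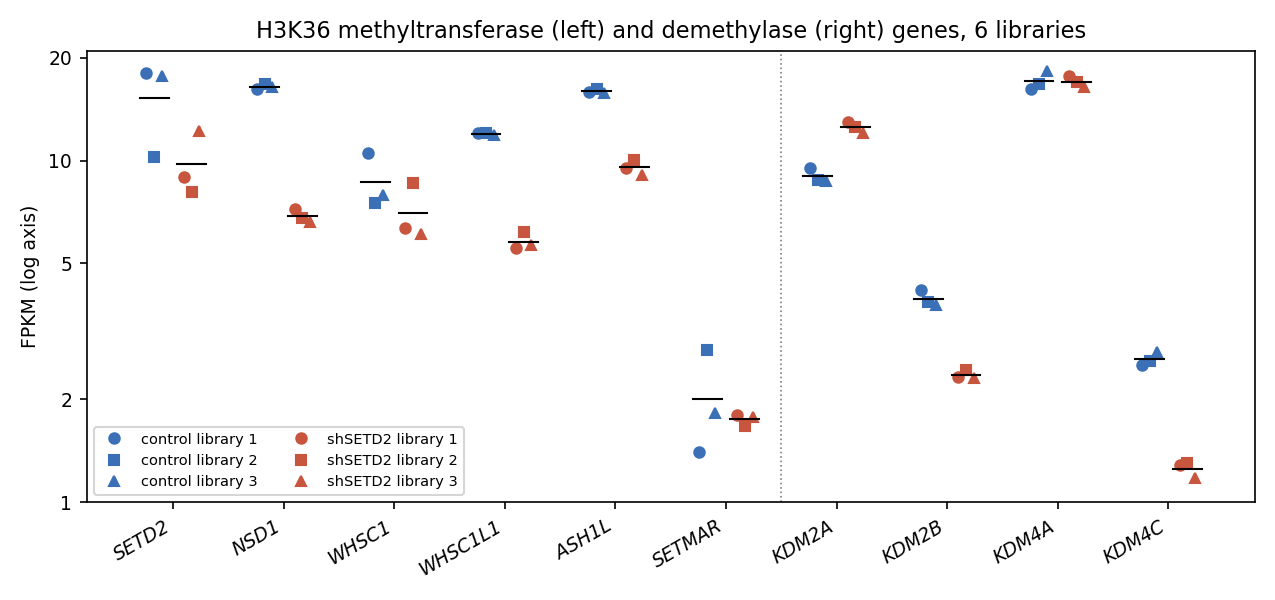
FPKM of each gene on a log axis, with 1 point for each of the 3 control (blue) and 3 shSETD2 (red) libraries and a short line at each group mean. NSD1, WHSC1L1, ASH1L, KDM2B and KDM4C lie lower in every shSETD2 library, KDM2A lies higher, and the points of SETD2, WHSC1, SETMAR and KDM4A overlap.

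The scale of the libraries matters for the sign of small differences. The median of all genes lay at -0.29 with FPKM as deposited. It lay at -0.01 after each library was scaled by its median ratio to the geometric mean. Genes with small negative differences can change sign between these scales, as WHSC1, SETMAR and KDM4A did. After quantile normalization the median of all genes was -0.11. With the median ratio, 5305 genes were higher and 5394 lower, against 3774 and 7283 as deposited. The 5 lower genes and KDM2A kept their direction and their call with median ratio scaling, quantile normalization and upper quartile scaling.

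**Figure D2:**
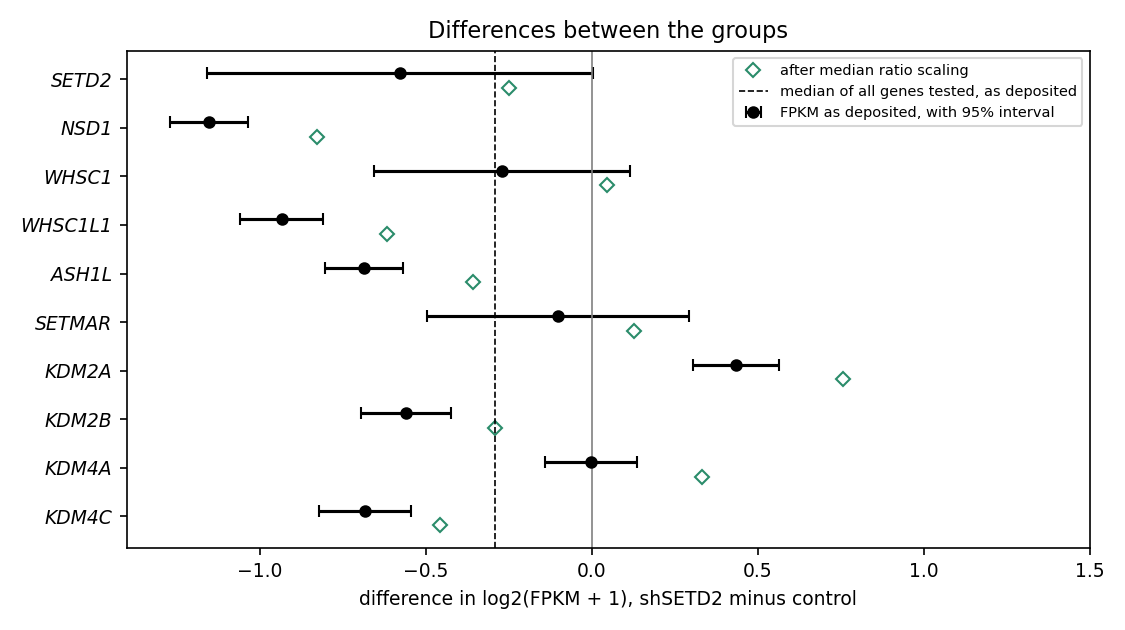
Difference in log2(FPKM + 1) between the group means, shSETD2 minus control, with limma's 95% interval (filled points) and after median ratio scaling (open diamonds). The dashed line is the median of all genes tested, -0.29, and the intervals of SETD2, WHSC1, SETMAR and KDM4A include 0.

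In GRCh37, the build of all positions of genes given here, SETD2 (ENSG00000181555.20_4) spans bases 47057919 to 47205457 of chromosome 3, on the minus strand. SETD2 is the target of the hairpins. In the order of the library numbers, its 3 control values were 17.99, 10.2 and 17.6 FPKM. The shSETD2 libraries held 8.97, 8.09 and 12.2 FPKM in the same order. Control library 2 was low for its group and lay below shSETD2 library 3, so the groups overlapped. The difference was -0.58 with a 95% interval from -1.16 to 0.0046 (adjusted p = 0.0641, limma), and the mean of the shSETD2 libraries was 36.2% below that of control (n = 3 in each group). Without control library 2 the difference was -0.83 (adjusted p = 6.66e-03, limma) and without shSETD2 library 3 it was -0.73 (adjusted p = 0.0420, limma). Leaving out any of the other 4 libraries gave differences from -0.53 to -0.45 that did not pass the threshold, with adjusted p from 0.149 to 0.181 (limma). After median ratio scaling it was -0.25 (adjusted p = 0.377, limma). As an effect of the hairpins and a difference in the source of the cells cannot be told apart, these values cannot test the labels. The libraries are called by their labels.

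The spread of SETD2 was unusual for these libraries. Its residual standard deviation on the log2(FPKM + 1) scale was 0.36, higher than that of 95.1% of all genes tested, where the median was 0.09. SETMAR and WHSC1 followed, each at 0.24, above 88.5% and 88.2% of genes. The other 7 genes lay between 0.045 and 0.069, all below the median of the genes tested.

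Among the writers of the lower methylation states, NSD1 (ENSG00000165671.19_3, chromosome 5, 176560026 to 176727216) had the largest difference. The control libraries held 16.2, 16.7 and 16.4 FPKM of it and the shSETD2 libraries 7.23, 6.77 and 6.59 FPKM. All shSETD2 values lay far below all control values, and the mean fell by 58.3%. The difference was -1.15 (standard error 0.048, adjusted p = 1.89e-06, limma), lower than that of all but 14.3% of the genes tested, and it was -0.83 after median ratio scaling. Mutations of NSD1 cause Sotos syndrome, an overgrowth disorder.

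WHSC1L1 (NSD3, ENSG00000147548.16_3, chromosome 8, 38127215 to 38239790), a paralog of NSD1, lies in a region that is often amplified in squamous lung cancer. It was listed at 12, 12 and 11.8 FPKM in the control libraries and at 5.54, 6.16 and 5.65 FPKM in the shSETD2 libraries. The control values almost coincided, with a coefficient of variation of 0.77%, and the groups were far apart. The mean fell by 51.6%, with a difference of -0.93 (standard error 0.051, adjusted p = 6.41e-06, limma) and of -0.62 after median ratio scaling. DDHD2, on the opposite strand, shares 5855 bases with WHSC1L1 and was also lower, at 7.004 ± 0.38 FPKM in control and 3.98 ± 0.15 in shSETD2 (SD, n = 3). The kit marks the strand, but whether the quantification used it is not given in the sources used here.

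WHSC1 (NSD2, ENSG00000109685.17_3, chromosome 4, 1873151 to 1983934), the third NSD paralog, is the gene joined to the immunoglobulin locus in a translocation of multiple myeloma. Its FPKM was 10.5, 7.51 and 7.95 in the control libraries and 6.35, 8.59 and 6.11 in the shSETD2 libraries. Control library 1 stood above the rest, and shSETD2 library 2 lay above control libraries 2 and 3. The difference was -0.27 with a 95% interval from -0.65 to 0.12 (adjusted p = 0.164, limma). It was 0.05 after median ratio scaling, and it passed the threshold only without shSETD2 library 2, at -0.40 (adjusted p = 0.0471, limma).

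ASH1L (ENSG00000116539.12_3, chromosome 1, 155305059 to 155532598) encodes a large Trithorax group enzyme. It was at 15.9, 16.2 and 15.8 FPKM in the control libraries and at 9.54, 10.02 and 9.10 FPKM in the shSETD2 libraries. The groups were well separated, and the mean fell by 40.2%. The difference was -0.69 (standard error 0.048, adjusted p = 2.00e-05, limma) and -0.36 after median ratio scaling. ASH1L stood beside NSD1, SETD2 and KDM4A at the top of the 10 genes in the control libraries, at percentiles 83.7 to 86.2 of the genes tested by level.

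SETMAR (ENSG00000170364.12_2, chromosome 3, 4344988 to 4359251) was the lowest writer. Its FPKM was 1.40, 2.79 and 1.83 in the control libraries and 1.80, 1.68 and 1.78 in the shSETD2 libraries. All shSETD2 values lay inside the range of the control values, and control library 2, which was low for SETD2, was high for SETMAR. The difference was -0.10 with a 95% interval from -0.50 to 0.29 (adjusted p = 0.582, limma). It was 0.13 after median ratio scaling, 0.26 after quantile normalization and 0.08 without control library 2. The annotation places the whole of SETMAR inside the span of SUMF1 on the opposite strand, which was at 1.86 ± 0.11 FPKM in control and 1.83 ± 0.10 in shSETD2 (SD, n = 3).

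Of the erasers, KDM2A (ENSG00000173120.14_2, chromosome 11, 66886740 to 67025558) was the single gene of the 10 that rose. Its FPKM was 9.53, 8.79 and 8.70 in the control libraries and 12.9, 12.6 and 12.03 in the shSETD2 libraries. Every shSETD2 value was above every control value, and the mean was 38.9% higher. The difference was 0.43 (standard error 0.053, adjusted p = 3.24e-04, limma) and 0.76 after median ratio scaling.

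KDM2B (ENSG00000089094.18_3, chromosome 12, 121866900 to 122018920), its paralog, brings a variant Polycomb complex to CpG islands. It was at 4.19, 3.86 and 3.79 FPKM in the control libraries and at 2.32, 2.43 and 2.31 FPKM in the shSETD2 libraries. Here every shSETD2 value was below every control value, and the mean fell by 40.3%. The difference was -0.56 (standard error 0.056, adjusted p = 1.19e-04, limma), -0.29 after median ratio scaling and -0.27 after quantile normalization. The annotation lets the opposite-strand gene RNF34 share 1528 bases with KDM2B, and RNF34 was at 6.86 ± 0.15 FPKM in control and 7.27 ± 0.38 in shSETD2 (SD, n = 3).

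KDM4A (ENSG00000066135.12_2, chromosome 1, 44115829 to 44171186) had the smallest difference. It was at 16.2, 16.7 and 18.3 FPKM in the control libraries and at 17.6, 16.9 and 16.4 FPKM in the shSETD2 libraries. The values of the groups were interleaved. The difference was -0.0036 with a 95% interval from -0.14 to 0.14 (adjusted p = 0.957, limma). It was 0.33 after median ratio scaling and passed the threshold (adjusted p = 1.74e-03, limma), and it was also above 0 without control library 3, at 0.04, and without shSETD2 library 3, at 0.02. Its call depends on how the libraries are scaled. The annotation holds a protein-coding gene on the same strand, ENSG00000284989, whose span covers all of KDM4A. Only spans were compared, so whether reads of these genes can be told apart is not known.

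KDM4C (ENSG00000107077.18_3, chromosome 9, 6720863 to 7175648) encodes a related enzyme of the same JmjC family. Its FPKM was 2.53, 2.58 and 2.76 in the control libraries and 1.29, 1.30 and 1.18 in the shSETD2 libraries. The groups were clearly apart, and the mean fell by 52.2%. The difference was -0.68 (standard error 0.057, adjusted p = 4.71e-05, limma). It ran from -1.06 with a pseudocount of 0.01 to -0.32 after quantile normalization, and this low gene is one whose change the pseudocount of 1 makes smaller.

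Summed per library, the FPKM of the 6 writers was 74.1, 65.5 and 71.5 in the control libraries and 39.4, 41.3 and 41.4 in the shSETD2 libraries. The 4 erasers summed to 32.4, 31.96 and 33.5 FPKM in control and to 34.2, 33.2 and 31.96 FPKM in shSETD2. In FPKM as deposited, where the median difference of all genes tested was -0.29, writer transcripts stood lower as a sum in every shSETD2 library. The sums of the erasers overlapped. How these sums compare after other scalings, or with further proposed writers and erasers added, was not tested. Within the writers, SETD2 made up 21.5% ± 5.12 of the sum in control and 23.9% ± 5.02 in shSETD2 (SD, n = 3). The share of NSD1 was 23.5% ± 1.86 and 16.9% ± 1.28, that of WHSC1 was 12.3% ± 1.69 and 17.2% ± 3.17, and that of ASH1L was 22.8% ± 1.74 and 23.5% ± 1.30 (SD, n = 3). Of the erasers, KDM4A made up 52.3% ± 2.30 and 51.3% ± 0.33, and KDM2A 27.6% ± 1.71 and 37.8% ± 0.11 (SD, n = 3).

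Ratios within a library do not depend on how the libraries were scaled to each other, so 6 such ratios were compared on the log2 scale with a two-sided exact permutation test. The writers over the erasers stood at 1.11 ± 0.080 in control and 0.30 ± 0.084 in shSETD2 (SD, n = 3). The ratio of KDM2B to KDM2A was -1.19 ± 0.0085 and -2.41 ± 0.061, and that of KDM4C to KDM4A was -2.70 ± 0.024 and -3.76 ± 0.053 (SD, n = 3). On a linear scale both ratios of paralogs were lower in shSETD2, 2.33-fold for KDM2 and 2.09-fold for KDM4. WHSC1 over NSD1 was -0.94 ± 0.28 in control and 0.015 ± 0.29 in shSETD2, so the level of WHSC1 came close to that of NSD1, and WHSC1L1 over NSD1 was -0.46 ± 0.023 and -0.25 ± 0.13 (SD, n = 3). For these 5 ratios the groups did not overlap, with p = 0.1 in the exact test, the smallest it allows, and 0.12 when adjusted over the 6 ratios.

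SETD2 over the sum of the NSD genes was the exception. This log2 ratio was -1.11, -1.83 and -1.04 in control libraries 1 to 3 and -1.09, -1.41 and -0.59 in shSETD2 libraries 1 to 3. The groups overlapped, with a difference of 0.29 (exact permutation test, p = 0.5). With 1 library left out it ranged from 0.04 (without control library 2) and 0.07 (without shSETD2 library 3) to 0.48 (without shSETD2 library 2). The transcripts of the gene named as target were not measurably lower relative to the NSD writers in the libraries labelled shSETD2. The means of NSD1 and WHSC1L1 themselves fell by 58.3% and 51.6%, so this ratio does not measure the change of SETD2 alone. By real-time qPCR and western blotting, the study reports lower SETD2 in H1650 cells with hairpins against it. It also reports, by western blotting, less trimethylated H3K36 in H1650 after depletion of SETD2. Whether the cultures of these assays were those sequenced is not stated.

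**Figure D3:**
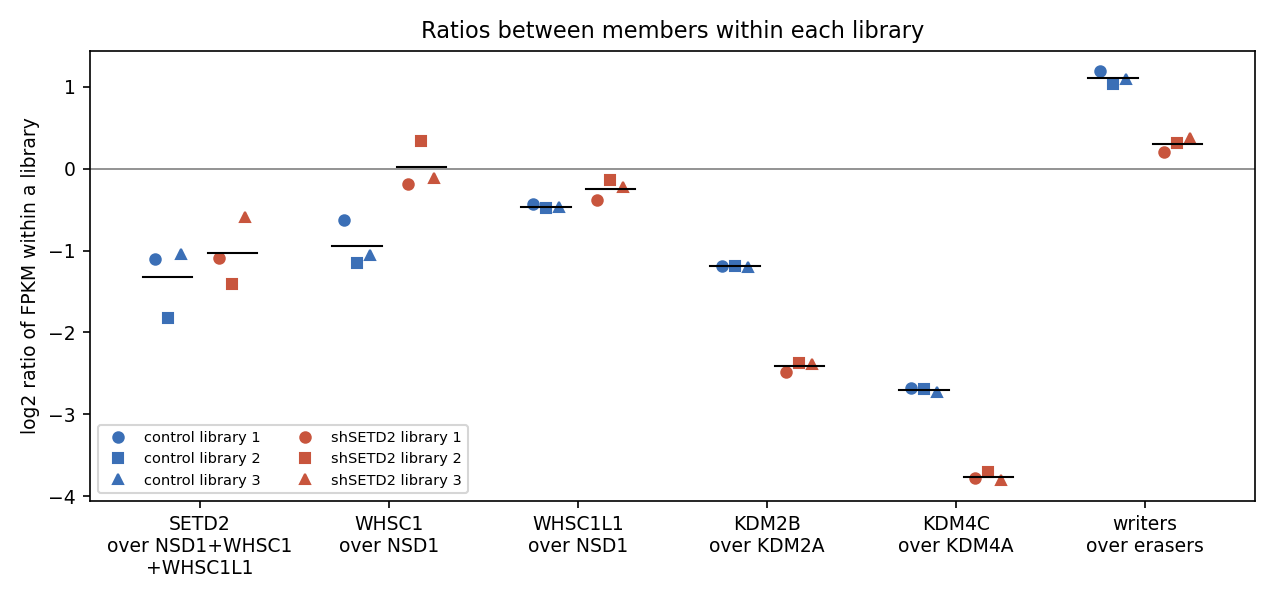
Log2 ratio of FPKM between genes within each library, with 1 point per library (control blue, shSETD2 red) and a short line at each group mean. The ratios of KDM2B to KDM2A, KDM4C to KDM4A and writers to erasers lie lower in all 3 shSETD2 libraries, while those of SETD2 to the NSD genes overlap.

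The genes lie on 8 chromosomes in all and differ widely in build. In GENCODE release 44 on GRCh37 the MANE transcripts have from 3 exons in SETMAR to 28 in ASH1L and from 2076 bases in SETMAR to 13042 in NSD1. The tested genes within 1 Mb of each were compared with it, counted as lower or higher at an adjusted p under 0.05 (limma). Of all genes tested, 51.8% were lower and 26.8% higher at this threshold. Around KDM4C, 7 of 8 neighbours were lower in the shSETD2 libraries and 0 higher, with a median difference of -1.27, below that of KDM4C itself. The median around WHSC1L1 was -0.88, with 16 of 24 neighbours lower and 3 higher. It was -0.49 around WHSC1, -0.47 around SETD2, -0.39 around NSD1, -0.17 around ASH1L, -0.12 around KDM2B and 0.096 around SETMAR. Around KDM2A the median was 0.15, with 24 of 52 neighbours higher and 16 lower, and around KDM4A it was -0.0071. The 16 neighbours of SETD2 counted 8 lower and 4 higher, and the nearest on either side, NBEAL2 and KIF9, had differences of -0.01 and 0.24. The part of the neighbourhood in the difference of each gene was not tested.

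The genes nearest to SETD2 over the 6 libraries were found by the Euclidean distance between profiles of log2(FPKM + 1), each centred on its own mean. The nearest 5 of 14067 were SEPHS1 (distance 0.14), PCBP2-OT1 (0.25), LRRC20 (0.26), CNFN (0.27) and HIST1H2BN (0.33). SEPHS1, which encodes a protein of the selenophosphate synthetase family, was at 15.6, 9.04 and 13.9 FPKM in the control libraries and at 7.001, 6.66 and 10.2 FPKM in the shSETD2 libraries. Like SETD2, all 5 were lowest of the control libraries in library 2 and highest of the shSETD2 libraries in library 3. Such likeness follows from the choice of the genes by their distance over the same 6 libraries. Of the other writers and erasers, KDM2B came closest to SETD2, at rank 1059 with a distance of 0.72, and KDM2A was farthest, at rank 9716 with 1.44.

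**Figure D4:**
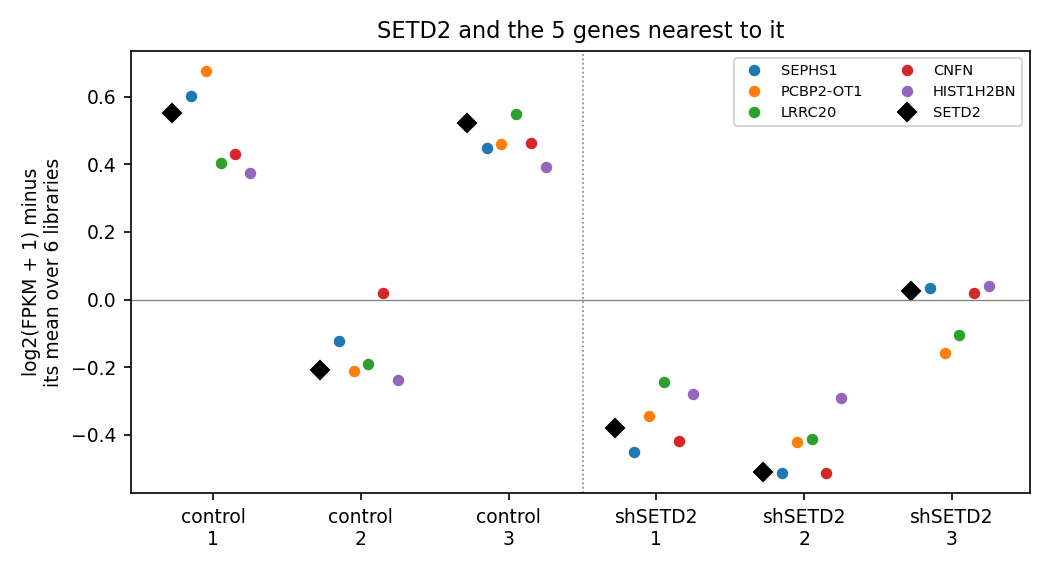
Log2(FPKM + 1) minus its mean over the 6 libraries for SETD2 (black diamonds) and the 5 genes with the nearest profiles (coloured points), side by side within each library. In each of the 6 genes control library 2 lies below control libraries 1 and 3, and shSETD2 library 3 lies above shSETD2 libraries 1 and 2. The 5 genes were chosen for their likeness to SETD2 over these libraries.

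Other genes that bear on H3K36 methylation were taken as lists. Of 8 further proposed writers and erasers 6 were tested, and 2 were higher and 4 lower at an adjusted p under 0.05 (limma), with a median difference of -0.57. KDM4D, a close relative of KDM4A, fell from 3.08 ± 0.40 to 0.55 ± 0.040 FPKM, and KDM4B from 4.16 ± 0.16 to 2.06 ± 0.19 (SD, n = 3). KDM4A was thus the one KDM4 gene tested that was not lower in the FPKM as deposited. SMYD2, a SET and MYND domain methyltransferase, rose from 3.85 ± 0.26 to 6.03 ± 0.54 FPKM (SD, n = 3). RIOX1, which encodes a JmjC oxygenase of the nucleolus, was listed at 0 in every control library and at 7.44, 7.63 and 7.62 FPKM in the shSETD2 libraries.

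Proteins that bind methylated H3K36, mostly through PWWP or chromo domains, were measured as 19 readers, of which 18 were tested. Of these, 11 were lower, 4 higher and 3 neither, with a median difference of -0.58. The de novo DNA methyltransferase DNMT3B fell from 9.25 ± 1.00 to 3.17 ± 0.41 FPKM, and MTF2, a Tudor protein of PRC2, from 13.4 ± 2.75 to 4.53 ± 0.14 (SD, n = 3). Its relative PHF19 rose from 3.78 ± 0.27 to 11.5 ± 0.62 FPKM, and ZMYND11, a reader of H3.3 trimethylated at this lysine, from 4.43 ± 0.12 to 9.53 ± 1.00 (SD, n = 3). The genes named here had the largest differences of the list in each direction. After median ratio scaling 10 readers were lower and 6 higher.

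The list of 17 partners in elongation, splicing and deacetylation had 10 lower and 4 higher genes and a median difference of -0.20. Among them CDK9, the kinase of P-TEFb, rose from 10.3 ± 0.50 to 21.8 ± 0.26 FPKM, and POLR2A, the largest subunit of RNA polymerase II, from 53.3 ± 1.04 to 77.0 ± 2.72 (SD, n = 3). CDK13 fell from 11.1 ± 0.26 to 4.51 ± 0.20 FPKM, and HDAC2 from 12.6 ± 0.36 to 5.47 ± 0.34 (SD, n = 3). Scaled by median ratio, 7 of the 17 were higher and 6 lower.

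Of 12 enzymes of the S-adenosylmethionine cycle and of 2-oxoglutarate metabolism, which supply the writers and the JmjC erasers, 5 were higher and 5 lower. IDH1, the cytosolic NADP-dependent isocitrate dehydrogenase, rose from 9.73 ± 0.84 to 19.3 ± 0.85 FPKM, while its mitochondrial counterpart IDH2 fell from 22.8 ± 1.96 to 7.12 ± 0.098 (SD, n = 3). OGDH rose from 12.2 ± 0.80 to 20.3 ± 0.35 FPKM, and MTR, the methionine synthase, fell from 36.6 ± 0.50 to 11.9 ± 0.58 (SD, n = 3). The median difference of this list was -0.01.

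**Figure D5:**
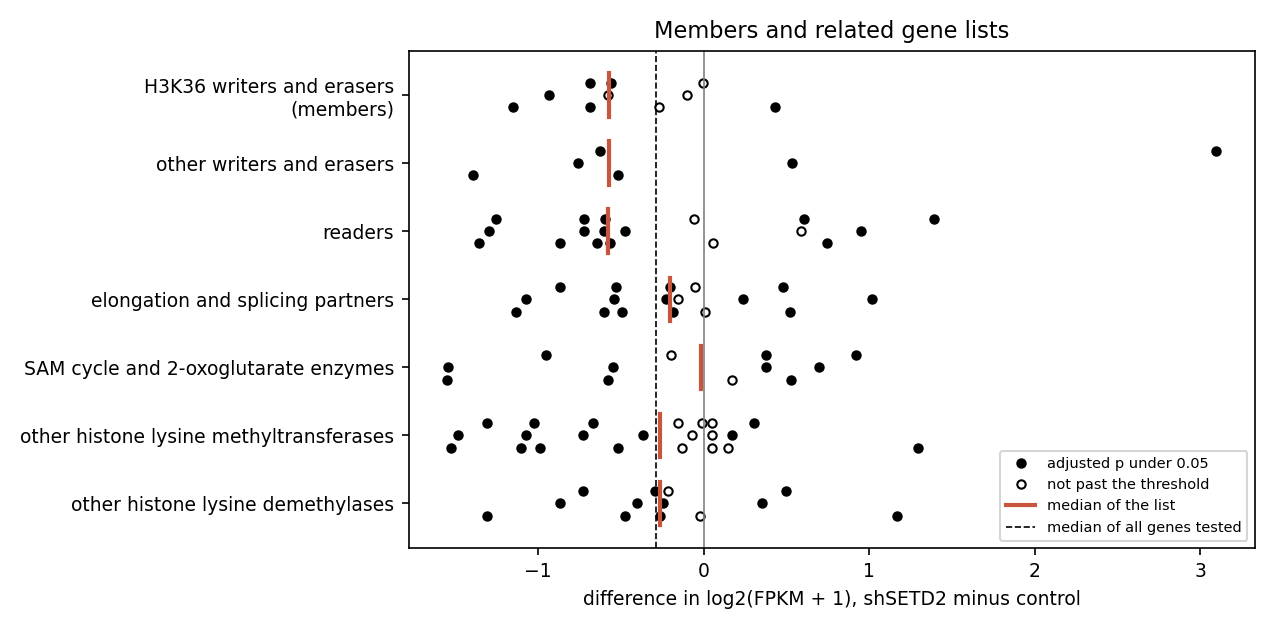
Difference in log2(FPKM + 1), shSETD2 minus control, of each tested gene in the H3K36 writers and erasers and in 6 related lists. Filled points passed an adjusted p of 0.05, red bars are list medians, and the dashed line is the median of all genes tested; the point past 3 is RIOX1, which was at 0 in every control library, so that its place depends on the pseudocount.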

How the data were processed

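RNA-seq libraries of H1650 cells (3 control, 3 shSETD2) were used. The authors mapped reads to hg19 (GRCh37) with Hisat2, quantified genes with Ballgown and deposited FPKM values for 15897 genes, 1 column per library. Tool versions and the filter that chose the genes are not given in the sources used here. A second deposited table adds the authors' fold changes and p-values, which were not used. The number of fragments behind an FPKM value, and so its counting error, is unknown. Those whose mean FPKM reached 0.5 (14068) were tested on log2(FPKM + 1) with limma 3.58.1 (lmFit, eBayes with an intensity trend) in R 4.3.3, with Benjamini-Hochberg adjustment and a threshold of 0.05. This scale makes the change of low genes smaller. The fit was tested on simulated data in which few genes changed. Most genes tested differed in the real data, so the simulation does not show how the fit performs there. Ratios between genes used FPKM with no pseudocount and an exact permutation test (scipy 1.17.1). Alternatives were pseudocounts of 0.1 and 0.01, other filters, scalings and variance models, the replicate number as a block, and each library left out in turn. From each related list at most 4 genes are named, the called genes with the largest differences, at most 2 in each direction. Markers and neighbours are named apart from this rule. A marker gene is not reported here, and its list was summed without it. The genes and lists were chosen with earlier results of these data known. Gene structures came from GENCODE release 44 on GRCh37, and sequences from RefSeq on GRCh38.p14, matched by symbol only.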

Additional observations from a re-analysis of the deposited data

How the results depend on the processing

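Over the 16 alternatives NSD1, WHSC1L1, ASH1L and KDM2A kept their direction and call, as did KDM2B and KDM4C over the 15 that tested them. The difference in log2(FPKM + 1) stayed between -1.26 and -0.83 for NSD1 and between 0.41 and 0.76 for KDM2A. With a mean FPKM of at least 5, KDM2B, KDM4C and SETMAR were not tested, so 3 of the 10 genes were called lower, and 2401 genes were higher and 3246 lower in all, since fewer genes were tested. With median ratio scaling 2 of the 10 genes were called higher, and 34 genes of the related lists against 21. Signs turned with median ratio scaling for WHSC1 (0.045), SETMAR (0.13) and KDM4A (0.33), with quantile normalization for SETMAR (0.26), and with upper quartile scaling for KDM4A (0.014), and the cause was not tested. Leaving out each library in turn gave differences from -0.25 to 0.078 (without control library 2) for SETMAR and from -0.038 to 0.044 (without control library 3) for KDM4A, which was also above 0 without shSETD2 library 3, at 0.019. The 6 ratios were recomputed with a pseudocount of 1, with the replicate block and without each library in turn, and kept their direction in these.

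Deviations of same-numbered libraries correlated at -0.02 to 0.02 across 14068 genes, so no broad shared effect of the replicate number was seen. Such values cannot show whether equal numbers mark a pair, which the labels do not say. For SETD2, library 2 was the lowest of both groups, at 10.2 FPKM in control and 8.09 in shSETD2. With the number as a block, SETD2 passed the threshold (adjusted p = 0.0157, limma) and 6 of the 10 genes were lower, with 3733 genes higher and 7243 lower in all. The unknown number of fragments limits all values, most of all those of SETMAR, KDM4C and KDM2B.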

Other observations

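Writers and erasers of other histone lysines give a frame for those of H3K36. Of 22 other histone lysine methyltransferase genes, all tested, 11 were lower, 3 higher and 8 neither in shSETD2 with an adjusted p under 0.05 (limma), with a median difference in log2(FPKM + 1) of -0.26. SUV39H2, which trimethylates H3K9, fell from 9.83 ± 0.31 to 2.76 ± 0.26 FPKM, while its paralog SUV39H1 rose from 5.72 ± 2.20 to 14.9 ± 0.12 (SD, n = 3). DOT1L, the H3K79 methyltransferase, fell from 10.7 ± 0.54 to 3.20 ± 0.33 FPKM, and SETD1B, an H3K4 methyltransferase, rose from 8.23 ± 0.39 to 10.4 ± 0.34 (SD, n = 3). With median ratio scaling 10 were lower and 9 higher.

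Of 13 other histone lysine demethylase genes, all tested, 8 were lower, 3 higher and 2 neither, with a median difference of -0.26. KDM7A fell from 9.66 ± 0.31 to 3.31 ± 0.29 FPKM, and KDM6A, an H3K27 demethylase, from 10.1 ± 0.52 to 5.05 ± 0.13 (SD, n = 3). Its relative KDM6B rose from 9.94 ± 0.42 to 14.5 ± 1.42 FPKM, and JMJD1C from 8.67 ± 0.30 to 20.9 ± 3.06 (SD, n = 3). With median ratio scaling 3 were lower and 4 higher.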
